A study of Homo sapiens with 22 samples.

Results

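The genes of cell death and cell-cycle arrest BCL2, BCL2L1, MCL1, BAK1, BAX and CDKN1A, 6 in all, were examined for peaks of the transcription factor WT1 and of the histone mark H3K4me3 in K562 cells. The members were fixed by name, and every deposited peak that overlapped a gene with 10 kb on each side was taken (hg19), which gave 536 of the 1311182 peaks placed on chromosomes 1 to 22, X and Y in 13 lists. K562 is an established human line from a chronic myeloid leukaemia. All cells stably carried a plasmid for the bacterial biotin ligase BirA under the EF1a promoter. The −KTS and +KTS cells carried in addition a FLAG- and biotin-tagged WT1 from a second EF1a plasmid, with the 17 amino acid insert in both forms and without or with the residues lysine, threonine and serine (KTS). Untagged cells carried the ligase alone. Streptavidin capture was available for 2 libraries of −KTS, 3 of +KTS and 3 of untagged cells, and H3K4me3 immunoprecipitation for 3 libraries of −KTS and 2 of +KTS cells. WT1 was thus driven from an introduced promoter, and whether each line was 1 clone is not given in the sources used here. The cell type was taken from the labels and was not checked against marker genes.

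The BCL2 family sets whether a cell releases cytochrome c from its mitochondria. BCL2, BCL2L1 (whose long product is BCL-XL) and MCL1 hold this step back, and BAX and BAK1 form the pores through which it happens. CDKN1A encodes p21, an inhibitor of cyclin-dependent kinases that arrests the cell cycle and is a classical target of p53. WT1 is a zinc finger factor whose −KTS form binds GC-rich DNA, and BCL2, BAK1 and CDKN1A are among the genes that WT1 has been described to act on. H3K4me3 marks the starts of active genes.

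The lists differed widely in length, which bounds every comparison below. Capture lists held 154732 and 3245 peaks in −KTS, 543203, 373510 and 35455 in +KTS and 743, 101 and 311 in untagged libraries. H3K4me3 lists held 27341 to 53149 peaks. The lowest score in a list was 50 in −KTS cells and 13 in all others, and the read depth is unknown. Lists from −KTS cells carry the word pooled in their names and those of the other cells do not, so isoform and the making of the lists cannot be told apart. Whether replicate libraries stem from separate cultures is not stated, and the p-values below therefore reflect the spread of these libraries alone, which may be technical. Gene ends are known here to 1 kb, as the selection gave them, and a start window was the start with 2 kb on each side. The gene body was the rest of the gene.

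H3K4me3 lay at the starts of BCL2, BCL2L1, MCL1, BAK1 and BAX in all 5 H3K4me3 libraries, and beside the CDKN1A start rather than in its window. Thus 5 of 6 start windows held a peak in every library. Of all 4 kb tiles of the genome, 2.29%, 4.02% and 3.34% held a peak in the −KTS libraries 1, 2 and 3 and 3.34% and 6.37% in the +KTS libraries 1 and 2. The 6 windows with their flanks held 33, 50 and 33 H3K4me3 peaks in −KTS and 17 and 30 in +KTS cells, where the mean density of each list would give 4.42, 6.22, 5.10, 3.60 and 7.01.

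WT1 capture peaks were found in the windows in tagged cells only. The 6 windows, 408 kb in all, held 69 and 3 peaks in −KTS libraries 1 and 2, and 170, 123 and 8 in +KTS libraries 1, 2 and 3. The mean density of each list would give 20.4, 0.428, 71.6, 49.2 and 4.67. The untagged libraries had 0 peaks in any window, but their short lists would give only 0.0980, 0.0133 and 0.0410 at their mean density. Of all 4 kb tiles of the genome, 0.0984%, 0.0137% and 0.0419% held a peak in them, and of the 4 kb windows around shared H3K4me3 regions described below 0.00855%, 0% and 0.0855%. No untagged library had a peak in 93.5% of genome stretches as long as the BCL2 window, and in 97.4%, 99.1%, 99%, 99.1% and 98.9% for the lengths of the BCL2L1, MCL1, BAK1, BAX and CDKN1A windows. An empty untagged window was therefore the usual state anywhere in the genome.

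At 2 genes every tagged library had a peak in the window. At BCL2L1 the windows held 27 and 2 peaks in −KTS and 49, 29 and 1 in +KTS libraries, against 0 in each untagged library. At CDKN1A they held 4 and 1 in −KTS and 15, 11 and 1 in +KTS libraries, again against 0. The 1 peak of +KTS replicate 3 at CDKN1A scored 14, above 0.209% of its list. Keeping peaks that scored 50 or more, this library had none there, so the separation at CDKN1A rests on that peak. All 5 tagged and no untagged libraries had a peak in 4.88% of genome stretches as long as the BCL2L1 window and in 1.21% of those as long as the CDKN1A window (12.9%, 0.786%, 1.01% and 0.932% for the lengths of BCL2, MCL1, BAK1 and BAX). The difference in log10 (peaks + 1) was 1.08 at BCL2L1 and 0.72 at CDKN1A, and for each the exact permutation test (two-sided) gave p = 0.0357, the lowest value among 56 splits, and an adjusted p of 0.107 over the 6 genes. BCL2 and BAK1 had peaks in 4 of 5 tagged libraries (exact permutation p = 0.143, adjusted p = 0.214 each) and MCL1 and BAX in 3 of 5 (exact permutation p = 0.357 each).

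**Figure D1:**
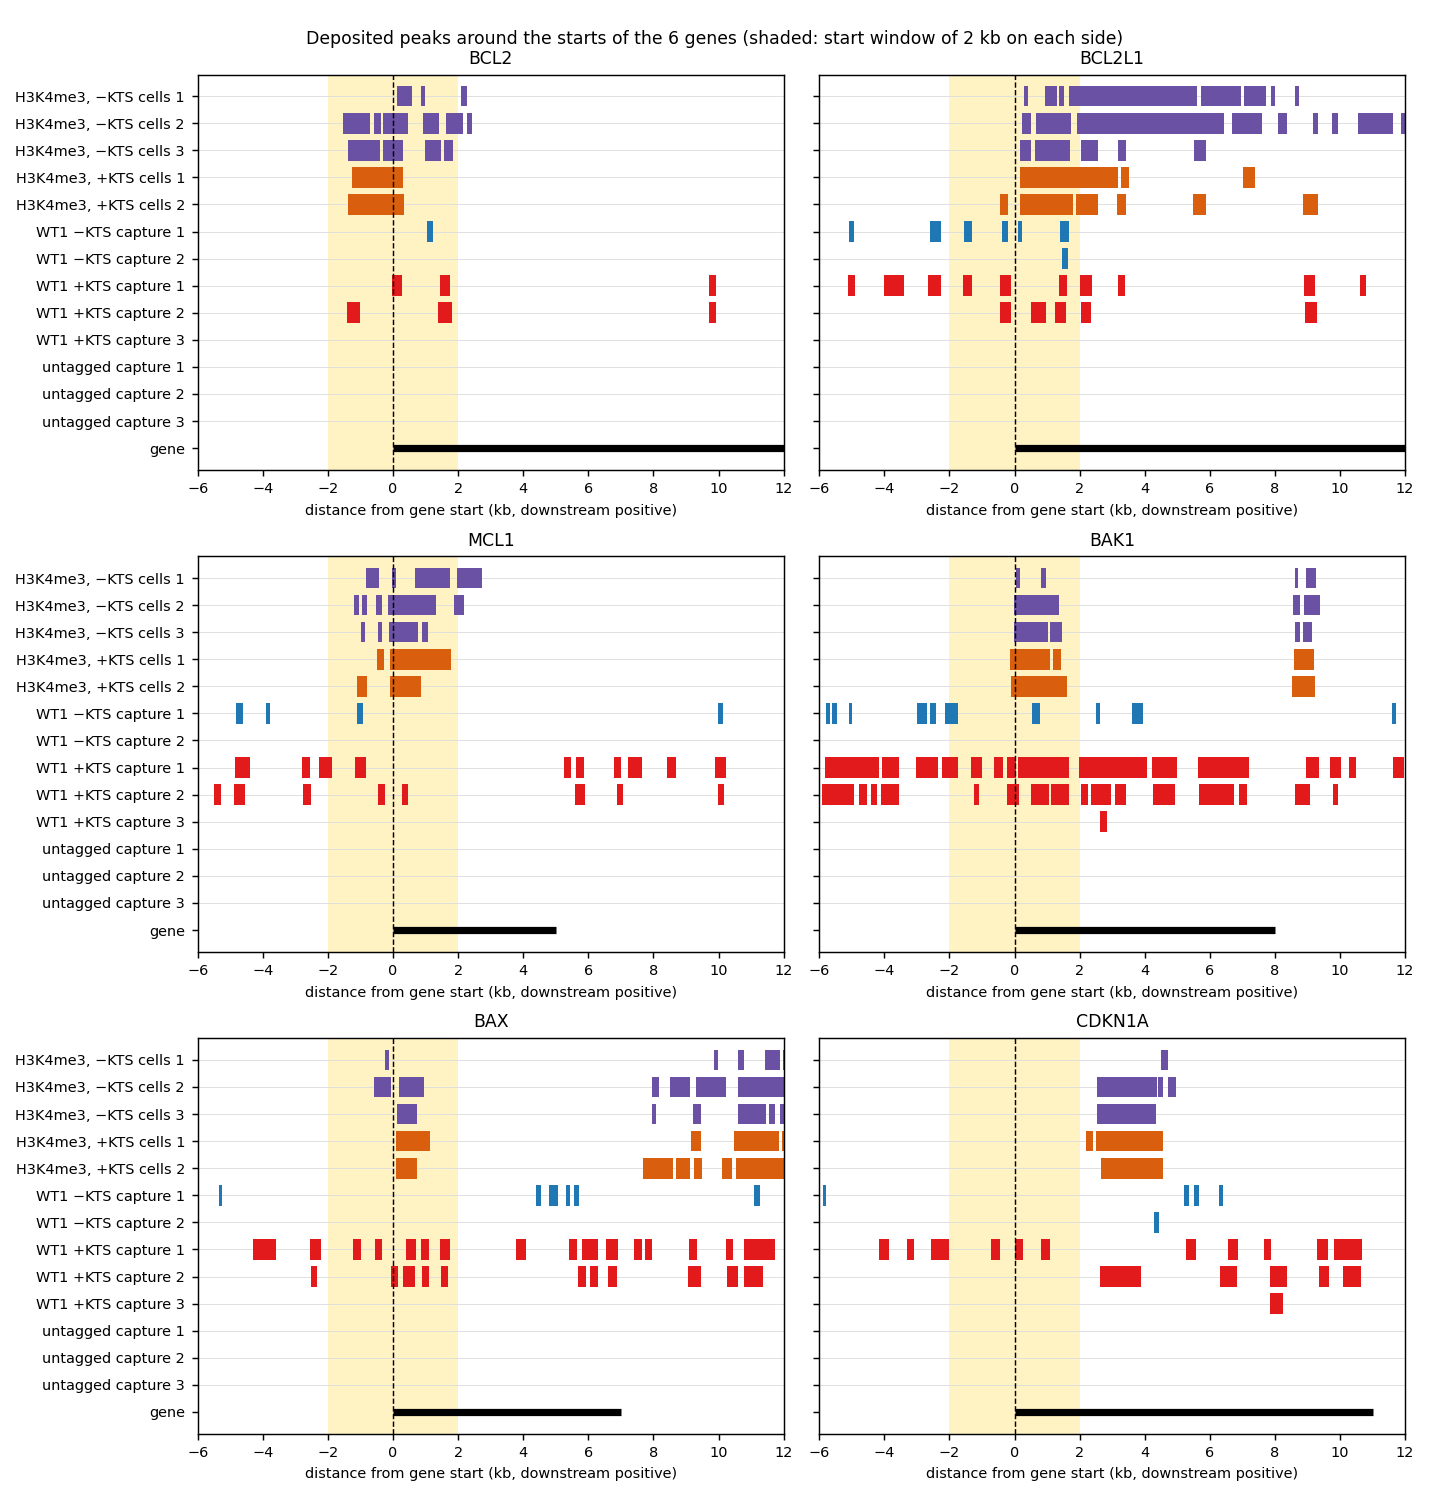
Peaks of each library (rows) against the distance in kb from the start of each gene, with downstream positive; blocks are deposited peaks, the black bar is the gene and the shaded band the start window of 2 kb on each side. H3K4me3 blocks lie in the band at every gene but CDKN1A, where they begin 2211 bp or more downstream, and the 3 untagged rows are empty.

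At gene starts, capture peaks were found at most members in the 3 longest lists. A peak lay in 4 and 1 of the 6 start windows in −KTS libraries 1 and 2, and in 6, 5 and 0 in +KTS libraries 1, 2 and 3. Around the 11693 H3K4me3 regions that all 5 libraries called anywhere in the genome, windows of the same 4 kb held a peak in 53.3% and 12.2% of cases in −KTS and in 85.8%, 94.7% and 6.16% in +KTS libraries. Genome tiles of 4 kb held one in 15.7% and 0.413% for −KTS and 40.7%, 27.8% and 4.57% for +KTS libraries. Nothing particular to these genes is read from the counts.

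The mean length covered by capture peaks at the start was greater in +KTS than in −KTS libraries at all 6 genes, but the libraries of the isoforms overlapped in range at each of them, since +KTS replicate 3 had none. Around the shared H3K4me3 regions the isoforms separated in 3.13% of cases, in 2.88% with +KTS higher and in 0.248% with −KTS higher. No gene passed (0 of 6 with an adjusted or an unadjusted exact permutation p under 0.05), and the lowest exact p was 0.6, where 10 splits allow 0.2. With the 3245 best peaks of each library, 0 of 6 starts were higher in +KTS, and BCL2L1 alone held a peak, in both −KTS libraries.

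**Figure D2:**
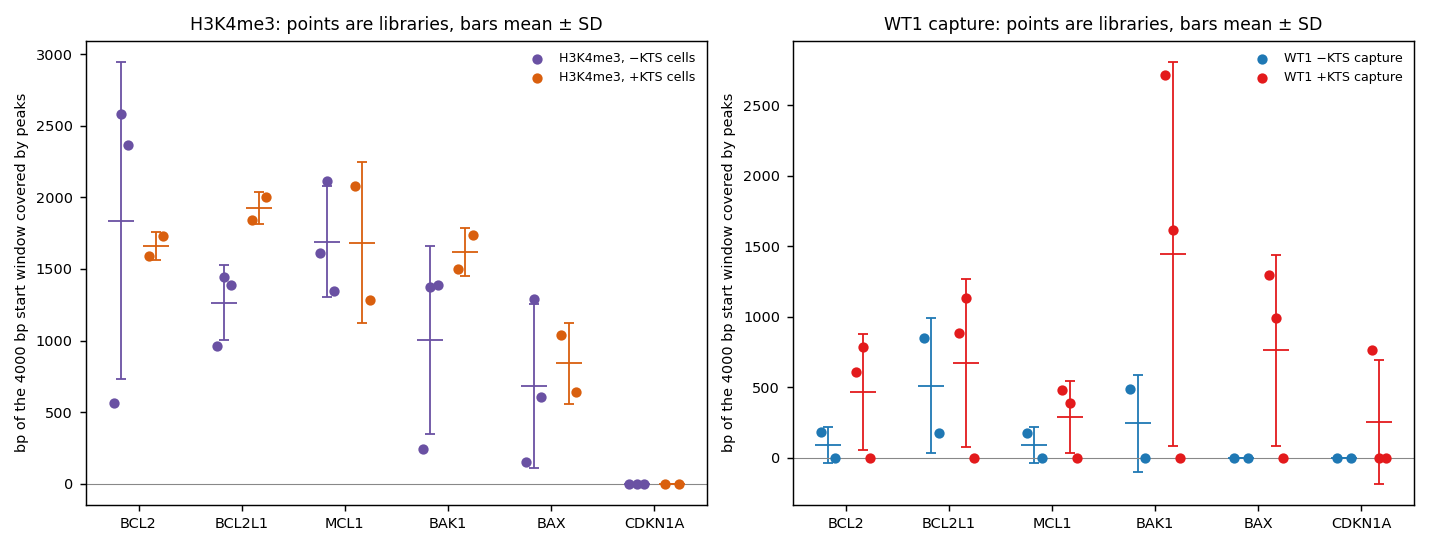
Base pairs of the 4000 bp start window covered by peaks at each gene, for H3K4me3 (left) and WT1 capture (right); points are libraries, horizontal marks the mean and bars the SD. The +KTS points for H3K4me3 at BCL2L1 (1845 and 2002 bp) and BAK1 (1497 and 1736 bp) lie above all −KTS points, while for capture the 0 of +KTS replicate 3 overlaps the −KTS points at every gene.

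BCL2L1 was the only member with a WT1 region shared by both −KTS libraries. H3K4me3 there formed a merged region of 7575 bp (chromosome 20, 30304271 to 30311845) that ran from 155 to 7730 bp downstream of the start and was called in all 5 libraries. The start window was covered over 962, 1444 and 1386 bp in −KTS and 1845 and 2002 bp in +KTS cells. All +KTS values exceeded all −KTS values, a mean of 1264 bp ± 263 (SD, n = 3) against 1924 bp ± 111 (SD, n = 2), and the exact permutation test (two-sided) gave p = 0.2, the smallest possible, and an adjusted p of 0.6. Such a separation in the same direction was found at 22.1% of the 11693 shared H3K4me3 regions and in the opposite direction at 0.411% (22.5% in either), so it is common in these lists.

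The WT1 region shared by both isoforms at BCL2L1 was 434 bp long (chromosome 20, 30310315 to 30310748) and lay 1252 to 1686 bp downstream of the start. It was called in −KTS libraries 1 and 2 and +KTS libraries 1 and 2 and was absent from +KTS replicate 3. It overlapped H3K4me3 in 3 of 3 libraries of −KTS and 2 of 2 of +KTS cells. The peaks scored 215 and 271 in −KTS libraries 1 and 2, above 98.5% and 80.3% of their lists. In +KTS libraries 1 and 2 they scored 52 and 48, above 38.4% and 32.0% of theirs. The region stood high in the −KTS lists and in the lower part of the +KTS lists. Of the 201 merged capture regions in the 6 windows, this was the 1 called in both −KTS libraries, against 0.313% of all 652786 merged regions. A 4 kb window around a shared H3K4me3 region held a peak of both −KTS libraries in 9.68% of cases, and of both and at least 2 +KTS libraries in 8.27%.

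RefSeq lists 2 starts for BCL2L1, at its outer end and 1095 bp into it. The place of the shared WT1 region relative to them is known only to about 1 kb, since the gene ends are. The 250 bases before each start are shown because both isoforms were captured nearby. Sequences are from RefSeq (GRCh38.p14), 5′ to 3′ on the strand of the gene, and capitals mark a match to GCGNGGGNG on either strand, a loose form of the site that −KTS WT1 shares with the EGR factors.
BCL2L1 upstream start, chr20:31723964-31724213, minus strand: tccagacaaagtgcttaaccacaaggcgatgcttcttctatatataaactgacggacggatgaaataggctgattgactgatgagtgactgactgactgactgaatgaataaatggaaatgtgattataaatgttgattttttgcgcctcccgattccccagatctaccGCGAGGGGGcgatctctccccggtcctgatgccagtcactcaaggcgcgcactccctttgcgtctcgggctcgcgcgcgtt
BCL2L1 downstream start, chr20:31722869-31723118, minus strand: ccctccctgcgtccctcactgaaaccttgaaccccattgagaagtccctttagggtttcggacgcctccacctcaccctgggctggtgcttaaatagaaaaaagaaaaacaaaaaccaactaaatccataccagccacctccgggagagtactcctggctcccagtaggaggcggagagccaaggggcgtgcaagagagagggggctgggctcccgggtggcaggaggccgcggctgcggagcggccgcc
The upstream sequence held 1 match, GCGAGGGGG, 81 to 73 bases before the start, and the downstream sequence held 0. A match stood in 17% of 35116 RefSeq promoters of this length. The stricter forms GCGTGGGAG, GCGTGGGCG and GCGGGGGCG, which are contained in the loose form and stood in 0.592%, 0.72% and 4.72% of promoters, were in none of the 6 entries of the members.

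In the BCL2L1 body, capture peaks covered 2.82% and 0.216% of the body in −KTS libraries 1 and 2 and 19.7%, 10.1% and 0.348% in +KTS libraries 1, 2 and 3. Divided by the share of the genome that the same list covered, the shares came to 3.50 and 12.1 in −KTS against 2.97, 2.60 and 1.25 in +KTS. Both −KTS values were higher than every +KTS value (exact two-sided permutation p = 0.2, the smallest possible, adjusted p = 0.4). The value of 12.1 rests on 1 peak, and without −KTS replicate 2 the difference in means went from -5.52 to -1.22. Keeping peaks that scored 50 or more, the isoforms stayed apart (exact permutation p = 0.2, adjusted p = 0.8), and with equal lists they did not (exact permutation p = 0.8). Separation in this direction was seen in 1.78% of genome stretches of the same length. Against the 1 Mb around the gene the ratios came to 0.685 and 3.42 in −KTS against 1.09, 0.974 and 0.527 in +KTS, and the groups overlapped, so the separation was lost when the neighbourhood was the reference. A second region of 344 bp (chromosome 20, 30281763 to 30282106), 29894 to 30238 bp into the gene, was called in −KTS replicate 2 and all 3 +KTS libraries but not in −KTS replicate 1. It met H3K4me3 in 0 of 3 libraries of −KTS and 1 of 2 of +KTS cells.

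BCL2, the founding inhibitor of cell death, was marked at its start and at several places deep inside the gene, which differed between libraries. At the start a merged H3K4me3 region of 2100 bp (chromosome 18, 60986433 to 60988532) reached from -1532 to 568 bp relative to the start and was called in all 5 libraries. Coverage of the start window was 563, 2583 and 2368 bp in −KTS and 1591 and 1730 bp in +KTS cells, and the groups overlapped (exact permutation p = 1). Replicate 1 of −KTS cells was far below the rest.

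Inside BCL2, 108.8 to 122.5 kb from the start (chromosome 18, 60864459 to 60878169), H3K4me3 peaks clustered in −KTS cells. The 3 −KTS libraries had 7, 11 and 6 peaks there covering 1617, 5992 and 1524 bp. The +KTS libraries had 0 and 1 peak, covering 0 and 288 bp. Every −KTS library was above both +KTS libraries. The best of these peaks scored above 75.2%, 90.8% and 72.7% of the −KTS lists. Keeping peaks that scored 50 or more left these values as they were, and with the 27341 best peaks of each library they were 1617, 5172 and 430 bp against 0 and 0. Among genome stretches of the same length with H3K4me3 in any library, 0.377% separated in this direction and 14.9% in the opposite one. The stretch was delimited from the −KTS peaks after they were seen, so the contrast is a description with no test. WT1 capture gave 0 peaks there in either −KTS library, 3 and 1 in +KTS libraries 1 and 2 and 0 in +KTS replicate 3.

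Other places inside BCL2 carried mark and capture together in +KTS cells. From 163833 to 164714 bp past the start, +KTS capture replicate 1 had a peak of 881 bp and replicate 2 one of 842 bp, with scores of 110 and 122 above 90.1% and 90.9% of their lists. H3K4me3 peaks of 500 and 860 bp lay there in +KTS libraries 1 and 2, and 1 of 125 bp in −KTS replicate 3. Both −KTS capture libraries and +KTS capture replicate 3 had no peak there. Further into the gene, another marked place was called in −KTS replicate 2 (385 bp from 181060 bp and 375 bp from 180546 bp) and +KTS replicate 2 (733 bp from 181031 bp, score 401, above 78.9% of its list). A short peak of 246 bp, 82516 bp in, was called in +KTS replicate 2. Peaks of +KTS capture libraries 1 and 2 overlapped the mark of +KTS replicate 2 at both of these places. At BCL2, all 4 H3K4me3 body peaks of +KTS replicate 2 overlapped a peak of +KTS capture replicate 1. The share over all H3K4me3 peaks of that list was not computed. That capture list held a peak in 85.8% of the 4 kb windows around shared H3K4me3 regions and in 40.7% of 4 kb genome tiles. Nothing particular to BCL2 is read from the overlap. The 1 body peak of H3K4me3 +KTS replicate 1 was the one of 500 bp named above. These places were chosen after their values were seen.

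**Figure D3:**
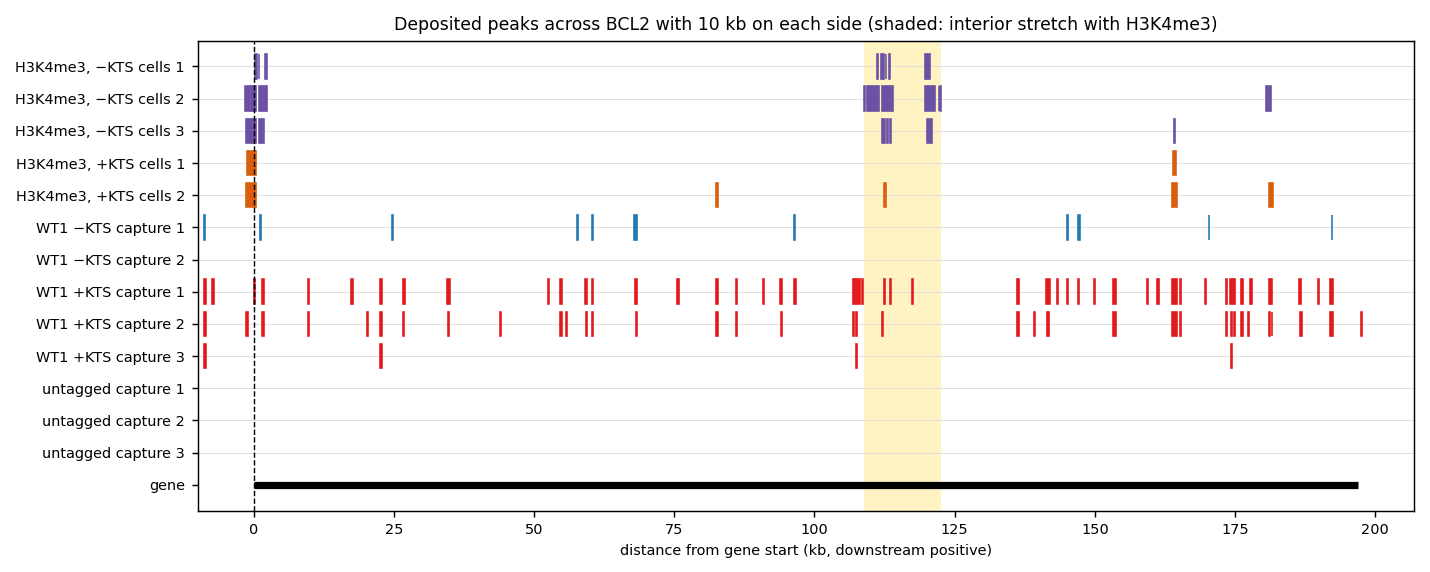
Peaks of each library (rows) across BCL2 with 10 kb on each side, against the distance in kb from the gene start. The shaded stretch from 108.8 to 122.5 kb holds H3K4me3 peaks of all 3 −KTS libraries and 1 short peak of +KTS replicate 2; blocks are drawn with a thin outline so that short peaks stay visible.

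WT1 capture at BCL2 was spread along the gene. The window held 12 and 0 peaks in −KTS and 48, 36 and 4 in +KTS libraries. Over the 195 kb body, capture covered 0.976 times the genome share of the list in −KTS replicate 1, 0 in −KTS replicate 2, and 1.11, 1.11 and 1.13 times in +KTS libraries 1, 2 and 3. The body thus carried capture peaks at about the genome mean in 4 of 5 lists. The isoforms did not overlap (exact two-sided permutation p = 0.2, the smallest possible, adjusted p = 0.4), the +KTS values being higher, and 15.6% of genome stretches of the same length separated this way. Keeping peaks that scored 50 or more gave 0.976 and 0 in −KTS against 1.18, 1.33 and 0.490 in +KTS, and the isoforms then overlapped (exact permutation p = 0.4, adjusted p = 0.8). Without −KTS replicate 2 the difference in means went from 0.63 to 0.14. The region called in the most libraries lay upstream, at -8931 to -8522 bp from the start (chromosome 18, 60995523 to 60995931), in −KTS replicate 1 and all 3 +KTS libraries, away from H3K4me3 in all 5 libraries. RefSeq places KDSR within 10 kb of BCL2. The next lay 67986 to 68404 bp into the gene (chromosome 18, 60918597 to 60919014), in −KTS replicate 1 and +KTS libraries 1 and 2, with scores above 86.2% to 96.7% of their lists.

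MCL1, a short-lived inhibitor of BAK1 and BAX, had the mark at its start and no WT1 peak in its body. H3K4me3 formed a region of 1932 bp across the start (chromosome 1, 150550220 to 150552151) in all 5 libraries, with scores above 95.3% to 99.0% of each list. The start window was covered over 1615, 2115 and 1346 bp in −KTS and 2080 and 1284 bp in +KTS cells, which overlapped (exact permutation p = 0.8). In the body the mark covered 24.1%, 5.73% and 0% in −KTS and 0% in both +KTS libraries (exact permutation p = 0.6). Capture peaks covered 177 and 0 bp of the start window in −KTS and 480, 386 and 0 bp in +KTS libraries. In the 3 kb body, 0 of 5 tagged libraries had a peak, which in so short a stretch is little to go on. The most recurrent capture regions flanked the gene, at -4871 to -4394 bp (chromosome 1, 150556395 to 150556871) and at 9882 to 10237 bp from the start (chromosome 1, 150541764 to 150542118). Each was called in −KTS replicate 1 and +KTS libraries 1 and 2 and met no H3K4me3 peak.

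BAK1, a pore-forming effector of cell death, had the highest share of its body covered by capture in +KTS libraries 1 and 2 among the 6 genes. Peaks covered 485 and 0 bp of the start window in −KTS and 2714, 1619 and 0 bp in +KTS libraries. Of the body they covered 7.88% and 0% in −KTS and 74.1%, 53.2% and 3.55% in +KTS libraries. Relative to the genome share of each list the body values came to 9.77 and 0 in −KTS against 11.1, 13.7 and 12.8 in +KTS. All 3 +KTS values exceeded both −KTS values, with little spread among +KTS libraries (12.6 ± 1.31, SD, n = 3; exact two-sided permutation p = 0.2, the smallest possible, adjusted p = 0.4). Separation of this kind was seen in 2.53% of genome stretches of that length. The +KTS replicate 3 value rests on 1 peak of 213 bp with a score of 29. Keeping peaks that scored 50 or more, the lowest score of the −KTS lists, gave 9.77 and 0 in −KTS against 15.7, 17.4 and 0 in +KTS, so the isoforms then overlapped (exact permutation p = 0.6, adjusted p = 0.9). Without −KTS replicate 2 the difference in means went from 7.67 to 2.79. The surrounding 1 Mb was itself densely covered, at 35.5%, 24.6% and 0.668% in +KTS libraries. Against it the BAK1 body stood at 2.08, 2.16 and 5.31 times in +KTS and 3.06 and 0 times in −KTS libraries, where the isoforms overlapped.

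Merged regions at BAK1 were long, mainly through +KTS replicate 1. One (chromosome 6, 33543937 to 33546008), 1992 to 4064 bp into the gene, was a peak of 2072 bp in +KTS replicate 1. Shorter peaks of −KTS replicate 1 and +KTS libraries 2 and 3 overlapped it, but those of −KTS replicate 1 and +KTS replicate 3 did not overlap each other. The other, of 1735 bp (chromosome 6, 33552165 to 33553899), lay upstream, at -5899 to -4164 bp. It held a peak of 1663 bp in +KTS replicate 1 and shorter ones in −KTS replicate 1 and +KTS replicate 2. Neither met H3K4me3 in any library. The mark itself lay at the start, in a region of 1778 bp (chromosome 6, 33546373 to 33548150) called in all 5 libraries. It covered 244, 1374 and 1387 bp of the window in −KTS and 1497 and 1736 bp in +KTS cells. The +KTS values were the higher in every library (exact two-sided permutation p = 0.2, the smallest possible, adjusted p = 0.6), and 22.1% of shared H3K4me3 regions separated likewise. The BAK1 body carried 0 H3K4me3 in all 5 libraries. At the start, peaks of +KTS capture libraries 1 and 2 lay over the marked stretch, and capture in these libraries went on across the body and the upstream flank, where the mark was not called. A second marked stretch, past the end of the gene, was called in all 5 libraries, from 8536 to 9244 bp in +KTS replicate 2.

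BAX, the other pore-forming effector, carried the mark at its start in every library, but in places that differed between libraries. H3K4me3 covered 150, 1291 and 604 bp of the start window in −KTS and 1040 and 640 bp in +KTS cells, and the groups overlapped (exact permutation p = 0.8). The peak at the start in −KTS replicate 1 did not overlap those of −KTS replicate 3 or of the +KTS libraries. No single region at the BAX start was called in all 5 libraries, and the region nearest the start that was (chromosome 19, 49467150 to 49468426) lay 9149 to 10426 bp downstream, past the end of the gene. In that region the peak of −KTS replicate 1 scored 53, above 0.397% of its list, and overlapped a peak of −KTS replicate 2 only. RefSeq places FTL, DHDH and GYS1 within 10 kb of BAX. Capture covered 0 and 0 bp of the start window in −KTS and 1296, 994 and 0 bp in +KTS libraries. In the body, relative to the genome share of the list, it stood at 17.8 and 0 in −KTS and 4.36, 3.92 and 0 in +KTS libraries. Neither start nor body separated the isoforms (exact permutation p = 0.6 and 0.8). The most recurrent regions lay 15360 to 16506 bp (chromosome 19, 49473361 to 49474506) and 5309 to 6304 bp (chromosome 19, 49463310 to 49464304) from the start, each in −KTS replicate 1 and +KTS libraries 1 and 2. In the first, the peaks of −KTS replicate 1 and +KTS replicate 2 did not overlap each other.

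CDKN1A carried H3K4me3 inside the gene as delimited here. The mark formed a region of 2204 bp (chromosome 6, 36646500 to 36648703), 2499 to 4703 bp from the start, in all 5 libraries, and covered 0 bp of the start window in each. RefSeq gives the listed CDKN1A start 2251 bp into the gene, so, within the 1 kb precision of the gene ends, the mark begins near that start. Counted from it, a choice made after the data were seen, the start window was covered over 0, 1710 and 1728 bp in −KTS and 1951 and 1606 bp in +KTS cells, and 5, 6 and 6 of the 6 start windows in −KTS and 6 and 6 in +KTS libraries held a peak. Only −KTS replicate 1, whose single peak of 206 bp lay further downstream, was without the mark in that window. From RefSeq (GRCh38.p14), the 250 bases before this start are shown because the marked region begins near here, with no capitals since no match to GCGNGGGNG was found in these letters.
CDKN1A, chr6:36678464-36678713, plus strand: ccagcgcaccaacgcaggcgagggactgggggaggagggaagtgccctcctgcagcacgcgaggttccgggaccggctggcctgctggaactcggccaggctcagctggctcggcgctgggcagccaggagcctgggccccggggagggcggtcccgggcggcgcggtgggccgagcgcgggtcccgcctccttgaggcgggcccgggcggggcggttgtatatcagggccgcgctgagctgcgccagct
This sequence is 76.4% G and C, against a median of 58% over the RefSeq promoters.

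WT1 at CDKN1A lay in the body in every tagged library, though in +KTS replicate 3 only as 1 peak with a score of 14. Capture covered 4.28% and 1.70% of the body in −KTS and 22.8%, 35.6% and 4.26% in +KTS libraries. Relative to the genome share of each list the shares came to 5.30 and 95.3 in −KTS against 3.43, 9.20 and 15.3 in +KTS libraries, and the isoforms overlapped (exact permutation p = 0.6). Against the 1 Mb around the gene the ratios came to 1.38 and 22.1 in −KTS against 0.875, 2.31 and 4.08 in +KTS libraries. The value of 95.3 comes from 1 peak in a list of 3245. That peak (chromosome 6, 36648279 to 36648431; score 256, above 78.6% of the list) lay 4278 to 4431 bp from the start and met the H3K4me3 region. No peak of −KTS replicate 1 overlapped it, as its nearest peaks lay 5220 bp and more from the start. In +KTS replicate 2 a peak of 1284 bp, 2614 to 3898 bp from the start, covered much of the marked region, and the other +KTS libraries had none there. Counted from the listed RefSeq start, capture covered 0 and 0 bp of the start window in −KTS and 259, 1284 and 0 bp in +KTS libraries. The recurrent regions lay downstream of the mark, at 6296 to 6868 bp (chromosome 6, 36650297 to 36650868) in −KTS replicate 1 and +KTS libraries 1 and 2, and at 7670 to 8383 bp (chromosome 6, 36651671 to 36652383) in the 3 +KTS libraries and no −KTS library. In the first, the peaks of −KTS replicate 1 and +KTS replicate 1 did not overlap each other. In the second, the peaks of +KTS libraries 1, 2 and 3 scored 35, 67 and 14. Scores of 35 and 14 are under 50, the lowest score of the −KTS lists, so peaks as low could not appear in those lists. RefSeq places the non-coding genes PANDAR and DINOL within 10 kb of CDKN1A.

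**Figure D4:**
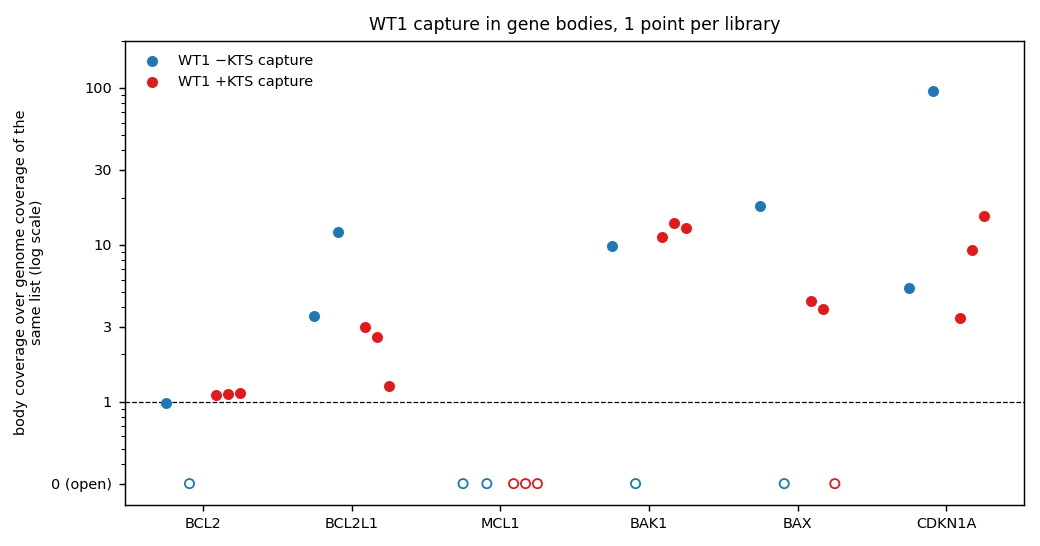
Share of each gene body covered by WT1 capture peaks divided by the share of the genome covered by the same list, on a log scale, 1 point per library; open points are 0 and the dashed line is 1. BAK1 is at 9.77 or more in 4 of 5 libraries, BCL2 is near 1, and MCL1 is 0 in all 5.

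Across the 6 bodies, the mean ratio to the genome was higher in +KTS libraries at BCL2 and BAK1, higher in −KTS libraries at BCL2L1, BAX and CDKN1A and 0 in both at MCL1. With an adjusted exact permutation p under 0.05, 0 of 6 genes passed, and 0 of 6 did so unadjusted. None could pass, since 2 against 3 libraries allow no exact permutation p under 0.2. The same holds for the H3K4me3 counts that follow. Genome stretches as long as the bodies of BCL2, BCL2L1, MCL1, BAK1, BAX and CDKN1A separated with +KTS higher in 15.6%, 12.3%, 1.38%, 2.53%, 2.16% and 3.59% of cases and with −KTS higher in 4.65%, 1.78%, 0.157%, 0.271%, 0.236% and 0.376%. For H3K4me3 in the bodies, 0 of 6 genes passed and none separated the cells, where stretches of these lengths did so with +KTS higher in 20.3%, 9.82%, 0.893%, 1.5%, 1.31% and 2.11% and with −KTS higher in 0.29%, 0.202%, 0.0372%, 0.0516%, 0.0467% and 0.0625% of cases. The mean cover of the BCL2 body was 1.80% ± 1.58 for −KTS (SD, n = 3) and 0.674% ± 0.590 for +KTS cells (SD, n = 2). At BCL2L1 these means were 9.08% ± 6.45 and 4.61% ± 2.09, and at CDKN1A 15.8% ± 11.9 and 23.3% ± 2.75. Single libraries weighed on the differences (+KTS minus −KTS, percentage points). Without −KTS replicate 2 the difference went from -1.13 to -0.215 at BCL2 and from -4.47 to -1.49 at BCL2L1, and without −KTS replicate 1 from 7.53 to 0.767 at CDKN1A. Counted from the listed RefSeq start, the CDKN1A body cover was 3.05%, 7.76% and 1.51% in −KTS and 4.82% and 4.74% in +KTS cells. The CDKN1A difference was then 0.669. BAK1 and BAX had 0% in every library. At the starts, 0 of 6 genes passed for H3K4me3 (lowest adjusted exact permutation p = 0.6), and 0 of 6 did so unadjusted.

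Start and body were compared within each library for the mark and for WT1. Wherever the mark was at a start, it covered a larger share of the start window than of the body in every library. At CDKN1A, as delimited here, it lay in the body and not in the start window. In −KTS replicate 1, for example, it covered 40.4% of the MCL1 start window and 24.1% of the body. Where WT1 capture lay at a start, −KTS libraries had the same order, at BCL2, BCL2L1, MCL1 and BAK1 in replicate 1 and at BCL2L1 in replicate 2. In +KTS replicate 2 the start was the more densely covered at BCL2, BCL2L1, MCL1 and BAX and the body at BAK1 (40.5% and 53.2%), and in replicate 1 the body at BAK1 and CDKN1A. In +KTS replicate 1 capture covered 67.9% of the BAK1 start window and 74.1% of the body, 22% and 19.7% at BCL2L1, 32.4% and 28.9% at BAX and 19.0% and 22.8% at CDKN1A. At BCL2 and MCL1 the start window was the more densely covered, at 15.1% and 7.36%, and 12% and 0%. The order given for WT1 leaves out every case without capture at the start. In −KTS libraries only the body held capture at BAX (14.3%) and CDKN1A (4.28%) in replicate 1 and at CDKN1A (1.70%) in replicate 2. The same held at CDKN1A in +KTS replicate 2 (35.6%) and at BCL2, BCL2L1, BAK1 and CDKN1A in +KTS replicate 3.

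Among capture peaks in the 6 windows, 6 of 69 and 2 of 3 overlapped H3K4me3 of the same cells in −KTS libraries 1 and 2 (8.70% and 66.7%), against 5.44% and 53.1% of the whole lists. In +KTS libraries 1, 2 and 3 the numbers were 28 of 170, 31 of 123 and 1 of 8 (16.5%, 25.2% and 12.5%), against 7.94%, 13% and 15.8%. The share in the windows was above that of its list in 4 of 5 libraries, and in −KTS replicate 2 and +KTS replicate 3 it rests on 3 and 8 peaks. Of the 201 merged capture regions, 46 were called in both isoforms (15.8% of all merged regions in the genome were), 95 in at least 2 +KTS libraries (43.7% of all merged regions in the genome met that rule), 4 in 4 tagged libraries (1.43% of all merged regions were in at least 4) and 0 in all 5 (0.0098% of all).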

How the data were processed

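Chromatin of K562 cells was crosslinked with 1% formaldehyde for 10 minutes, per the labels' protocols, and tagged WT1 was pulled down with streptavidin beads. The authors deposited 1 peak list per library for 13 of 22 libraries. The 9 input libraries were not analysed here. Build hg19, Bowtie2 2.2.7 and MACS2 2.1.1.20160226 are named per the submitters' processing notes. How peaks were filtered, against which control and at which cut-off, is not given in the sources used here. The deposited score of each peak, a whole number, is the authors' own value, and peaks were ranked by it inside a list and never across lists.

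Autosomal, X and Y peaks entered the counts, made with Python 3.11.15, numpy 2.4.6 and pandas 2.3.3. A peak belonged to a window from 1 bp of overlap, and the 78 counts matched those of bedtools 2.31.1. All 1200 start windows of simulated lists gave the planted peaks and lengths. Gene ends came from the selection, strands from the RefSeq promoter table and, for MCL1, general knowledge. Libraries were compared per gene by exact two-sided permutation tests of the difference in means, with Benjamini-Hochberg adjustment over the 6 genes. The smallest p is 0.2 for 2 against 3 libraries and 0.0357 for 3 against 5. The genome length, 3095 Mb, is the sum of the largest peak ends. Named regions are, per gene, the H3K4me3 region nearest the start among those in the most libraries and the 2 capture regions in the most tagged libraries, ties going to the best worst score rank. Regions were merged over lists by chains of overlapping peaks, so the peaks of different libraries in a region need not share a base. The members and lists were chosen with earlier results of these data known. Fixed lists of other pathway genes and of cell markers were not used, because they need an hg19 annotation, which was not used here.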

Additional observations from a re-analysis of the deposited data

How the results depend on the processing

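Across 358 values of single genes under alternative settings, 0 had an adjusted exact permutation p under 0.05 (the lowest was 0.0857), and 19 turned direction. Comparisons of −KTS with +KTS libraries allow no exact permutation p under 0.2. Only tagged against untagged capture could have passed, so the 0 tells nothing about the other comparisons. Depth is unknown, so a missing peak does not show a missing signal. Number of genes higher in +KTS: for H3K4me3 at starts, 3 became 5 with equal lists and 5 with a start window of 1 kb on each side, and 2 to 5 without 1 library; for H3K4me3 in bodies, 1 became 3 with 1 kb and 0 with 5 kb, where MCL1 has no body. With equal lists, WT1 starts went from 6 to 0 and WT1 bodies from 2 to 0, as few peaks are left. Turned differences (+KTS minus −KTS, bp for starts) for H3K4me3 starts were, with equal lists, 92.5 at BCL2 and 127.3 at MCL1; with 1 kb, 291.7 at BCL2 and 33.5 at MCL1; with 5 kb, -459.8 at BCL2L1; and with most of the peak inside, 41.0 at MCL1. The WT1 start of BCL2L1 gave -236.5 bp with equal lists, and the WT1 body ratio of CDKN1A 8.16 with 5 kb. Causes were not tested. Leaving out 1 library gave, for H3K4me3 starts, -815 to 195 at BCL2, -408 to 388 at MCL1 and -107.5 to 463 at BAX; for the WT1 start of BCL2L1, -177.3 to 498.7; and for WT1 body ratios, -86.0 to 4.02 at CDKN1A, which turns without −KTS replicate 2, and -15.0 to 2.76 at BAX, which turns without −KTS replicate 1.

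With the replicate number as a replicate block, the mean difference in H3K4me3 at the BCL2 start turned from -177.5 to 87.5 bp. The block left out −KTS replicate 3, which has no +KTS partner, and leaving out that library alone also gave 87.5 bp. No call changed, but an exact sign-flip test of 2 pairs allows no p under 0.5. The labels tie the numbers to no shared culture or day, and same-numbered libraries gave mixed correlations of deviations over 1 Mb tiles: 0.207 and 0.177 for H3K4me3 (2 pairs, and -0.207 and -0.177 across these numbers), 0.673 and -0.353 for −KTS and +KTS capture, 0.143 and 0.168 for −KTS and untagged capture, and 0.0709, -0.0858 and 0.0261 for +KTS and untagged capture. In a group of 2 libraries the deviations mirror each other, so the values across numbers only repeat the others with the sign turned. The rule for pairing asked for 3 or more pairs all over 0.1. Comparisons with 2 pairs could not meet it, so it decides nothing there, and the 3 pairs of +KTS and untagged capture did not meet it. The numbers were not taken to pair the libraries.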
